A study of Mus musculus with 14 samples.

Results

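The *Dlx* genes are the 6 mouse homeobox genes *Dlx1* to *Dlx6*, and their transcripts were measured in forelimb buds with and without *Smad4*. The members were the rows whose gene symbol was one of these 6 names, out of 23284 symbols counted in each library. All 6 were counted in each of the 14 libraries, and 5 of them passed the filter on low counts and were tested with 12393 genes in all. *Dlx4* was too low for that filter and was tested separately in a fit without it.

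Each library came from both forelimb buds of 1 embryo of the NMRI strain. Wild-type embryos were *Smad4*+/+ PrxCreT/+, so the controls carried the *Prrx1*-Cre transgene as well. Mutant embryos were Smad4Δ/Δc PrxCreT/+, with 1 allele deleted in every cell and the other deleted by Cre. The groups were wild type (n = 3) and mutant (n = 4) at E10.0 (30 somites), then wild type (n = 3) and mutant (n = 4) at E10.5 (35 somites). *Prrx1*-Cre acts in the limb bud mesenchyme, so the mutant ectoderm had 1 *Smad4* allele rather than none, and the controls were not heterozygous for *Smad4*. The design addresses which transcripts depend on SMAD4, the partner protein shared by the SMADs that BMP and TGFβ receptors activate, as the limb bud grows out.

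*Dlx* proteins are transcription factors with a homeodomain, named after Distal-less, the fly gene needed to make the outer parts of appendages. Mammals carry them in pairs of neighbouring genes that are transcribed towards each other and share enhancers. In the limb bud they are best known from the surface ectoderm and above all from the apical ectodermal ridge (AER), the thickened rim whose FGFs keep the bud growing. Loss of *Dlx5* together with *Dlx6* splits the hind feet of mice. The same genes pattern the pharyngeal arches and the forebrain, and BMPs are among the signals known to induce them. Whole buds were measured here, so fewer cells of a type and less RNA per cell cannot be told apart.

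In the mm9 build of the mouse genome, *Dlx1* (chr2:71366170-71372038, plus strand) faces *Dlx2* (chr2:71381466-71384811, minus strand). *Dlx3* (chr11:94981403-94986610, plus strand) faces *Dlx4* (chr11:95001770-95007577, minus strand). *Dlx6* (chr6:6813334-6818568, plus strand) faces *Dlx5* (chr6:6827805-6832085, minus strand). All 6 genes are annotated as protein coding, and the longest transcript of each has 3 exons. Exons of *Dlx1* share 335 bases (8.1% of its exon bases) with the antisense gene *Dlx1as*, and exons of *Dlx4* share 79 bases (3.5%) with *A730090H04Rik*. Reads were counted without strand, so reads from those shared bases could not be assigned to one gene of the pair.

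Promoter sequences were at hand for *Dlx1* and *Dlx2* only. They are shown because SMAD complexes bind short motifs in DNA, and the part of these motifs in the *Dlx* values was not tested. Each run is the 250 bases before the RefSeq start of the gene (build GRCm38.p6, chr2:71529195-71529444 on the plus strand for *Dlx1* and chr2:71546755-71547004 on the minus strand for *Dlx2*), 5′ to 3′ on the gene's own strand. The mm9 positions above come from another annotation (GENCODE), so the gene starts need not be the same in both. Capitals mark matches to the motifs listed after them.
Dlx1: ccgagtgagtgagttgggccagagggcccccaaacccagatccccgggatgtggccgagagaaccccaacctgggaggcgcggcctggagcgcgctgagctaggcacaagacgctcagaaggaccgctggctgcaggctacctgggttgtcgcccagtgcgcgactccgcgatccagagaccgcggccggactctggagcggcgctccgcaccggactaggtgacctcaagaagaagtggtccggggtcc
Dlx2: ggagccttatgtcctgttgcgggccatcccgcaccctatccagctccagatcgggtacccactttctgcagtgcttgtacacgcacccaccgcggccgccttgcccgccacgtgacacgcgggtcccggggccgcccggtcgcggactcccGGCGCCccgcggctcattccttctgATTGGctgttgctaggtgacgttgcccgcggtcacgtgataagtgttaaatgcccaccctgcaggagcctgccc
4 motifs were searched on both strands. CAGAC is the core of the SMAD box, and GGCGCC is a GC-rich SMAD motif that is its own reverse complement. TAATTA is a homeodomain motif that is also its own reverse complement, and CCAAT is the promoter box of that name. The *Dlx1* window held none of them. The *Dlx2* window held 1 GGCGCC and 1 CCAAT, the latter read as ATTGG on the printed strand. Among 32851 promoter windows of the same length, CAGAC was present in 42.2%, GGCGCC in 9.59%, TAATTA in 4.84% and CCAAT in 33.8%. Both windows were rich in G and C (68.0% in *Dlx1* and 66.4% in *Dlx2*, against a median of 52.4% over all windows). The other 4 *Dlx* genes had no entry in the promoter table.

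The libraries held between 34066930 and 61691258 reads on genes. *Smad4* itself was at 161 ± 8.43 CPM (reads scaled to library totals of 1000000; ± SD) in wild type and 39.8 ± 4.19 CPM in mutants at E10.0, and at 166 ± 2.27 and 37.0 ± 3.43 CPM at E10.5, a log2 fold change of -2.01 and -2.16. *Tbx5*, which marks the forelimb, was at 76.8 to 144 CPM, *Pitx1*, which marks the hindlimb, was at no more than 0.191 CPM, and *Tbx4*, a hindlimb gene, was at 1.51 to 16.0 CPM. The ribosomal RNA precursor *Rn45s* took 1.72% to 8.05% of reads in mutant replicates 4 and 5 of both stages and 0.151% to 0.478% in the other 10 libraries. All 4 were mutants, while the other 4 mutant libraries (0.151% to 0.456%) lay near the wild-type range, so the *Dlx* comparisons are also given without mutant replicates 4 and 5. Of 8 limb mesenchyme markers, 5 were lower and 0 higher in mutants at E10.0, and 4 lower and 1 higher at E10.5. Of markers of other cells, 4 of 4 tested macrophage genes rose with stage in both genotypes and 2 were higher in mutants at E10.0. In mutants against wild type, the mesothelium genes *Wt1* and *Upk3b* were higher at E10.0 and lower at E10.5. Neural crest genes summed to 14.8 to 24.3 CPM (*Foxd3* was at 0 in all wild-type embryos at E10.0) and pharyngeal arch genes, *Dlx1* and *Dlx2* not counted, to 2.39 to 7.92 CPM. Their part in the *Dlx* values was not tested.

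The 6 *Dlx* transcripts spanned a wide range of levels in whole buds. Per length of transcript (RPKM, the CPM divided by the transcript length in kilobases), the group means in wild type at E10.0 were 4.44 for *Dlx3*, 4.18 for *Dlx2*, 2.57 for *Dlx5*, 1.41 for *Dlx1*, 0.499 for *Dlx6* and 0.408 for *Dlx4*. This order of the RPKM means was the same in all 4 groups. The place of *Dlx1* below *Dlx5* depends on the lengths used (4111 and 1423 bases). In CPM the mean of *Dlx1* was above that of *Dlx5*, for example 5.79 against 3.66 in wild type at E10.0 and 4.06 against 2.30 in mutants at E10.5. The embryos of neighbouring genes overlapped between *Dlx3* and *Dlx2* in 3 groups (not in wild type at E10.5), between *Dlx2* and *Dlx5* in mutants at E10.5, and between *Dlx6* and *Dlx4* in 3 groups (not in mutants at E10.5). On the RPKM scale *Dlx5*, *Dlx1* and *Dlx6* were separated from each other in each group. Within each pair, 1 gene was thus higher than its partner: *Dlx2* over *Dlx1*, *Dlx3* over *Dlx4* and *Dlx5* over *Dlx6*.

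*Dlx1* is a factor of forebrain interneurons and pharyngeal arches that is also transcribed in limb ectoderm. In wild type it was at 5.52, 6.73 and 5.13 CPM at E10.0 and at 4.33, 4.30 and 4.05 CPM at E10.5. In mutants it was at 7.75, 6.49, 5.46 and 4.18 CPM at E10.0 and at 3.33, 4.29, 4.67 and 3.94 CPM at E10.5. The 3 later wild-type embryos lay below the 3 earlier ones, the mutant stages overlapped at the lowest earlier embryo, and the genotypes overlapped at both stages. *Dlx2*, its partner and a gene of the AER, was at 8.39, 13.9 and 8.67 CPM in wild type at E10.0 and at 6.39, 6.11 and 5.21 CPM at E10.5. In mutants *Dlx2* was at 8.55, 9.92, 10.5 and 7.77 CPM at E10.0 and at 4.23, 5.84, 6.57 and 6.38 CPM at E10.5. All later embryos lay below all earlier ones in both genotypes, and wild-type replicate 2 at E10.0 was the highest embryo of all.

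*Dlx3*, a gene of the epidermis, hair, teeth and placenta, was at 10.7, 14.7 and 9.77 CPM in wild type at E10.0 and at 8.75, 7.84 and 7.57 CPM at E10.5. In mutants *Dlx3* was at 9.34, 13.99, 11.1 and 9.10 CPM at E10.0 and at 4.55, 7.51, 8.32 and 8.11 CPM at E10.5. The stages did not overlap in either genotype, and the lowest value was mutant replicate 1 at E10.5. *Dlx4* is the least studied member and is known from the placenta. It was counted with 17 to 71 reads per library, at 0.804, 1.23 and 0.748 CPM in wild type at E10.0 and 0.601, 0.550 and 0.700 CPM at E10.5. In mutants *Dlx4* was at 0.872, 1.23, 0.983 and 0.689 CPM at E10.0 and at 0.338, 0.546, 0.623 and 0.554 CPM at E10.5. Its stages did not overlap in either genotype, like those of its partner *Dlx3*.

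*Dlx5*, a gene of the AER and of early bone, was at 3.47, 4.40 and 3.10 CPM in wild type at E10.0 and at 2.67, 2.67 and 2.21 CPM at E10.5. In mutants *Dlx5* was at 3.01, 3.41, 3.85 and 3.15 CPM at E10.0 and at 1.64, 2.23, 3.11 and 2.21 CPM at E10.5. The wild-type stages did not overlap, and the mutant stages overlapped at mutant replicate 4 of E10.5. *Dlx6*, which acts with *Dlx5* in the ridge, was counted with 20 to 105 reads per library. It was at 0.877, 1.19 and 1.26 CPM in wild type at E10.0 and at 0.745, 0.923 and 0.438 CPM at E10.5. In mutants *Dlx6* was at 0.992, 1.82, 0.847 and 0.492 CPM at E10.0 and at 0.800, 0.937, 1.25 and 0.944 CPM at E10.5. It was the only member whose stages overlapped in both genotypes, and its earlier mutant embryos had the widest spread (1.04 ± 0.561 CPM, SD, n = 4).

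**Figure D1:**
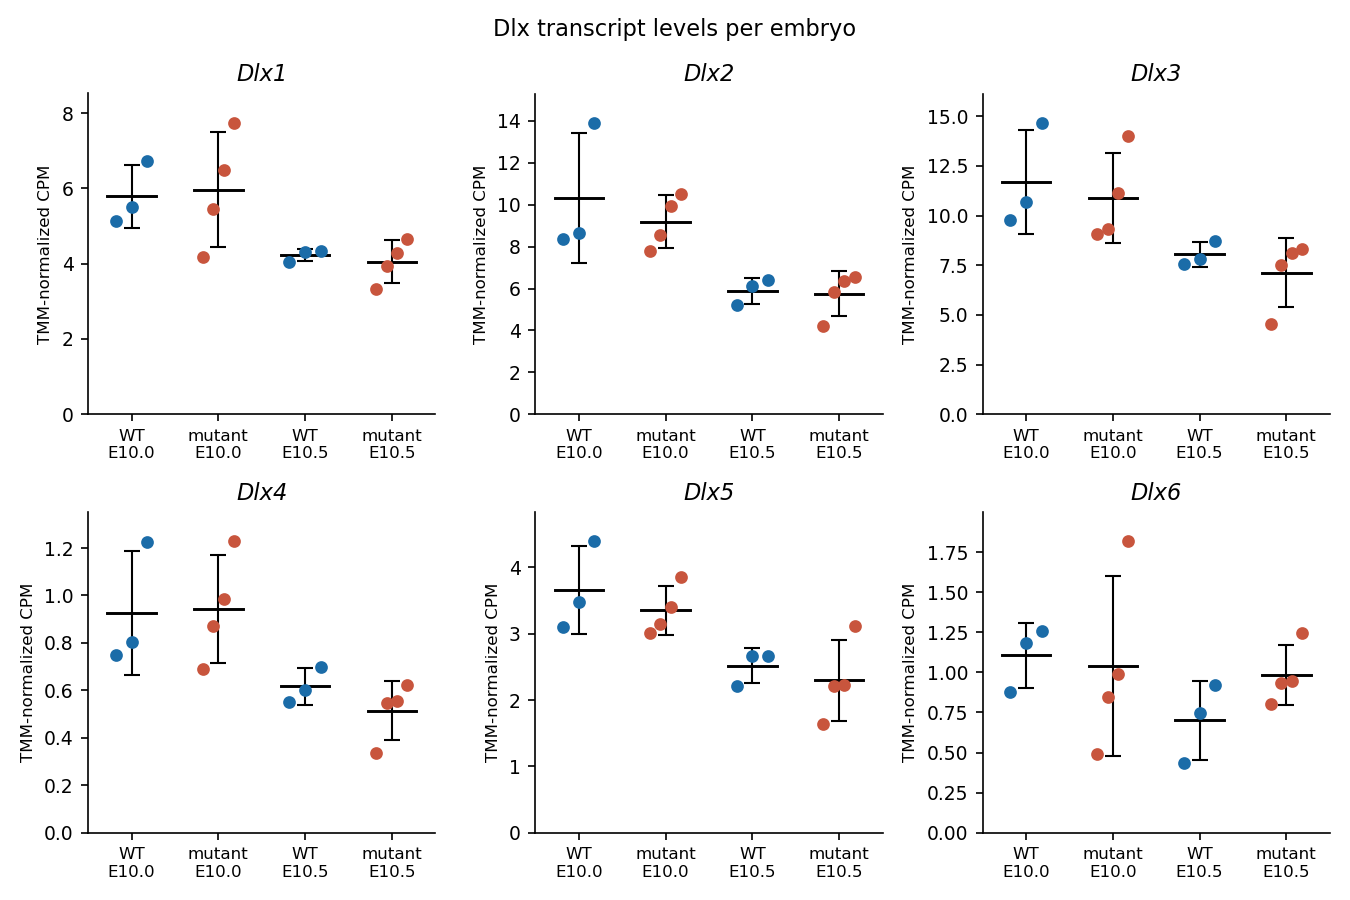
TMM-normalized CPM (vertical axes, starting at 0) of the 6 *Dlx* genes in each embryo (points) of wild type (WT, n = 3 per stage) and mutant (n = 4 per stage), with the group mean and SD as bars. WT and mutant points overlapped at both stages for each gene, and *Dlx2*, *Dlx3* and *Dlx4* were lower at E10.5 in all embryos of both genotypes.

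No *Dlx* gene passed the threshold between mutant and wild-type forelimb buds at either stage. At E10.0, 0 of the 5 tested *Dlx* genes were called, against 6.61% of all 12393 genes, and at E10.5 0 of 5 were called, against 3.73% of all genes. A gene was called when its adjusted p (edgeR's exact test, Benjamini-Hochberg over all genes tested) was at most 0.1 and its fold change at least 1.2. No *Dlx* gene had an unadjusted p under 0.05 at either stage (0 of 5 at each), and edgeR's quasi-likelihood test, DESeq2 and limma-voom each called 0 as well. The median log2 fold change over the 5 genes was -0.10 at E10.0 and -0.06 at E10.5, beside -0.02 and -0.01 over all genes tested.

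The intervals show which differences these embryos could have missed. The edgeR log2 fold changes (mutant over wild type) at E10.0 were 0.05 for *Dlx1*, -0.17 for *Dlx2*, -0.10 for *Dlx3*, -0.13 for *Dlx5* and -0.07 for *Dlx6*. The matching 95% intervals from limma-voom ran from -0.32 to 0.42 for *Dlx1*, from -0.51 to 0.24 for *Dlx2*, from -0.51 to 0.31 for *Dlx3*, from -0.49 to 0.24 for *Dlx5* and from -0.89 to 0.57 for *Dlx6*. *Dlx1*, *Dlx2*, *Dlx3* and *Dlx5* were thus bounded more narrowly than *Dlx6*, which rested on few reads. At E10.5 the log2 fold changes were -0.06 for *Dlx1* (-0.51 to 0.34), -0.04 for *Dlx2* (-0.53 to 0.37), -0.18 for *Dlx3* (-0.73 to 0.22), -0.14 for *Dlx5* (-0.63 to 0.23) and 0.47 for *Dlx6* (-0.31 to 1.30). *Dlx4*, in the fit without a filter over 18612 genes, was at 0.06 (-0.46 to 0.60) at E10.0 and -0.28 (-0.96 to 0.33) at E10.5, with an adjusted p of 1.0 from edgeR's exact test at both stages. Without mutant replicates 4 and 5, *Dlx1* was at 0.32 at E10.0 (adjusted p = 0.235, edgeR's exact test) and *Dlx3* at -0.41 at E10.5 (adjusted p = 0.426), and 0 of the 5 genes were called at either stage.

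Over the same embryos, genes that respond to BMP signalling, a list chosen with the results of these data known, were lower in mutants. Of 9 response genes, 6 were called lower at E10.0, 7 were called lower at E10.5 and 0 were called higher, with median log2 fold changes of -0.59 and -0.64. The count was 7 at each stage without mutant replicates 4 and 5. *Id1*, an inhibitor of helix-loop-helix factors and a direct BMP target, was at -1.24 and -1.33, and *Msx2*, a homeobox gene of both mesenchyme and ectoderm, at -1.06 and -1.66. *Msx1*, its close relative, did not pass (-0.67 and -0.55; adjusted p by edgeR's exact test 0.167 and 0.543). Of the 5 tested BMP ligands and antagonists, *Bmp4* was higher at both stages (0.38 and 0.34), the antagonist *Grem1* lower (-1.22 and -1.09), *Gdf5* lower at E10.0 (-1.29) and *Bmp2* higher at E10.5 (0.91). Of 7 anterior mesenchyme genes, 2 were lower at E10.0 (*Pax1*, -2.87, and *Alx4*, -0.36) and 3 at E10.5 (*Pax1*, -2.61; *Alx1*, -0.60; and *Alx4*, -0.45).

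Few markers of the ectoderm, the tissue in which limb *Dlx* genes are best known, passed the threshold between the genotypes. Of 9 tested ridge genes, 0 were called at E10.0 and 1 at E10.5, *Fgf9*, which was higher (0.97). *Fgf8*, the principal ridge FGF, was at 0.04 and 0.08 and did not pass, and nor did *Sp8* (-0.07 and -0.10) or *Trp63* (-0.09 and -0.22), factors needed to form the ridge. Of 18 surface ectoderm markers, 1 was called at E10.0, *Krt5*, a basal keratin (-0.40), and 0 at E10.5. All 18 were below 0 at E10.0, with a median log2 fold change of -0.22, and the median at E10.5 was -0.10. When mutant replicates 4 and 5 were left out, 2 markers were called lower at E10.0, 1 was called lower at E10.5, and 1 ridge gene was called higher at each stage. *Epcam*, an epithelial adhesion molecule, was at -0.21 and -0.15, and *Krt14* at -0.11 and 0.18, and neither passed. The 18 markers summed to 382 to 461 CPM in wild type and 307 to 416 CPM in mutants at E10.0, and to 350 to 369 and 262 to 365 CPM at E10.5.

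**Figure D2:**
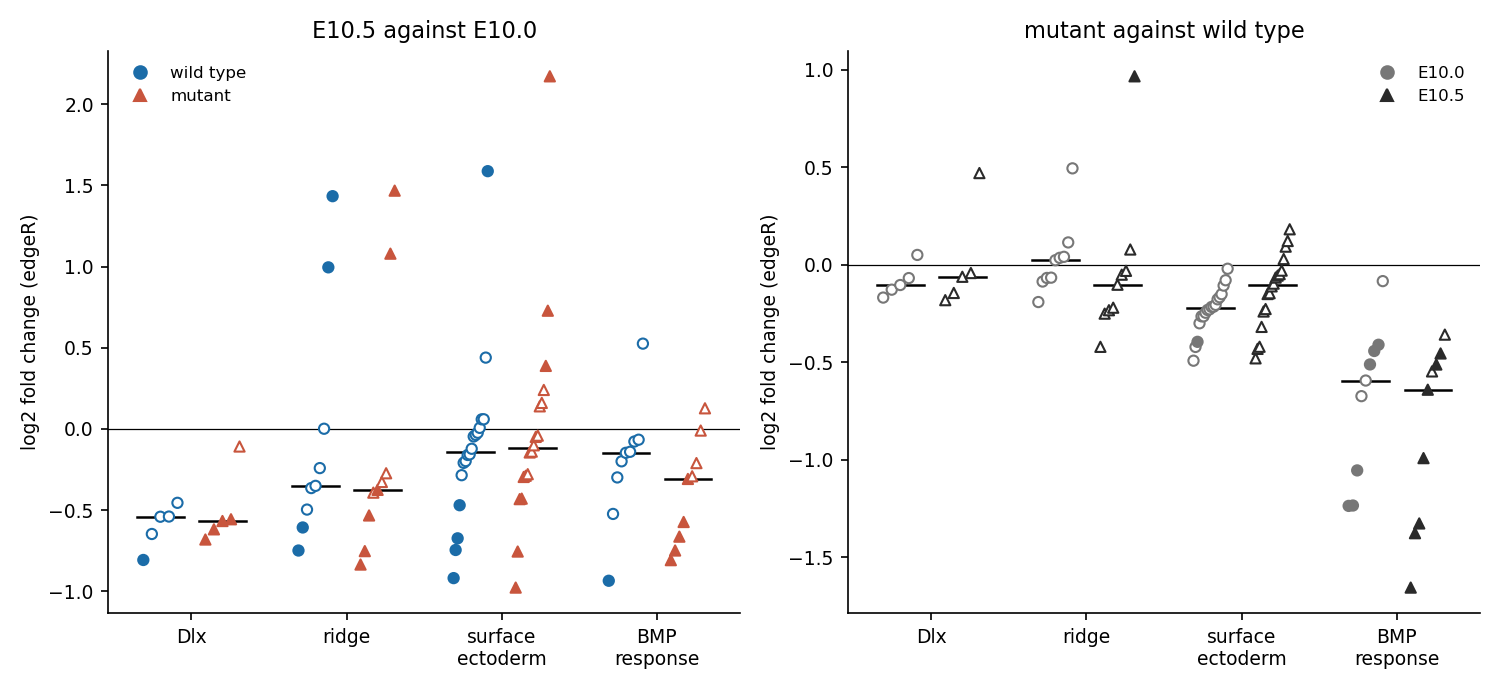
edgeR log2 fold changes (vertical axes) of the tested *Dlx*, apical ridge, surface ectoderm and BMP response genes, between stages (left) and between genotypes (right). Filled points were called, open points were not, and black bars are medians; between genotypes no *Dlx* point is filled and 6 and 7 of the 9 BMP response points are, while between stages 1 *Dlx* point is filled in wild type and 4 in mutants.

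*Dlx* transcripts were lower at E10.5 than at E10.0, past the threshold for 1 gene in wild type and for 4 in mutants. In wild type 1 of the 5 tested genes was called lower, *Dlx2*, against 4.74% of all genes. *Dlx2* fell by 0.81 on the log2 scale (Benjamini-Hochberg adjusted p = 0.00318, exact test of edgeR). The other 4 were all below 0 without passing: *Dlx1* at -0.46 (adjusted p = 0.173), *Dlx3* at -0.54 (0.109), *Dlx5* at -0.54 (0.117) and *Dlx6* at -0.65 (0.315). All later wild-type embryos lay below all earlier ones for 4 of the 5 genes (*Dlx1*, *Dlx2*, *Dlx3* and *Dlx5*), against 20.4% of all genes. In the fit without a filter *Dlx4* was at -0.58 (adjusted p = 0.347) with an interval from -1.16 to 0.07. The median over the 5 genes was -0.54, beside -0.01 over all genes.

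The wild-type calls turned on single libraries. Without wild-type replicate 2 at E10.0, the embryo with the highest *Dlx2*, the log2 fold change of *Dlx2* was -0.53 (adjusted p = 0.144) and 0 of the 5 genes were called. Without wild-type replicate 3 at E10.0, mutant replicate 1 or 3 at E10.0 or mutant replicate 4 at E10.5, the count was 2, and without mutant replicate 1 at E10.5 it was 3. Without mutant replicates 4 and 5 of both stages, or with the wild-type stages fitted alone, 4 genes were called (*Dlx1*, *Dlx2*, *Dlx3* and *Dlx5*).

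In mutants 4 of the 5 tested genes were called lower at E10.5, against 8.40% of all genes. *Dlx1* fell by 0.57 on the log2 scale (adjusted p = 0.0141), *Dlx2* by 0.68 (0.00194), *Dlx3* by 0.62 (0.00962) and *Dlx5* by 0.56 (0.0300), all by the exact test of edgeR and adjusted by Benjamini-Hochberg. *Dlx6* was at -0.11 (adjusted p = 0.897) with an interval from -0.72 to 0.68. *Dlx4* fell by 0.91 in the fit without a filter (adjusted p = 0.0139). All later mutant embryos lay below all earlier ones for 2 of the 5 genes (*Dlx2* and *Dlx3*), against 8.91% of all genes, and the median over the 5 genes was -0.57, beside -0.01 over all genes.

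The deviations of same-numbered mutants of the 2 stages from their group means correlated at 0.571, 0.611 and 0.269. Mutants with different numbers reached 0.383, so the numbers need not mark pairs. In a fit of the mutants alone that blocked on the replicate number, 3 of the 4 genes tested in that fit were called (edgeR's quasi-likelihood test): *Dlx1* was at -0.53 with an adjusted p of 0.131. *Dlx5* lost its call without mutant replicate 4 at E10.0 (-0.49, adjusted p = 0.102) and without mutant replicate 1 at E10.5 (-0.41, adjusted p = 0.150, both edgeR's exact test). Without mutant replicates 4 and 5, the same 4 genes were called, with *Dlx1* at -0.90 and *Dlx3* at -0.95.

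**Figure D3:**
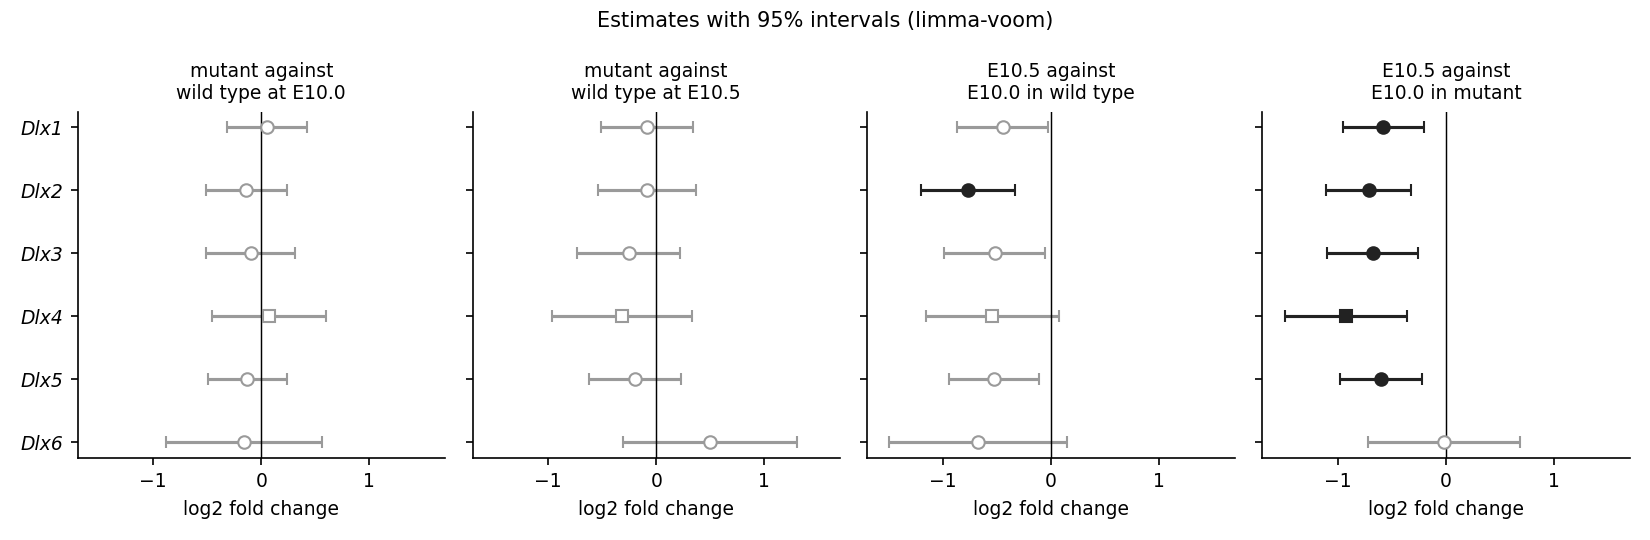
log2 fold changes with 95% intervals from limma-voom (horizontal axes) of the 6 *Dlx* genes in 4 comparisons. Filled points were called by edgeR's exact test, open points were not, and squares mark *Dlx4* from the fit without a low-count filter; the intervals of all 6 genes cross 0 between genotypes, and in mutants those of *Dlx1* to *Dlx5* lie below 0 between stages.

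The stage difference of the *Dlx* genes was not shown to differ between the genotypes. The interaction of stage and genotype (edgeR's quasi-likelihood test) called 0 of the 5 *Dlx* genes, against 0.186% of all genes, with 0 of 5 at an unadjusted p under 0.05, and DESeq2 and limma-voom called 0 too. Leaving out mutant replicates 4 and 5 also gave 0. The difference of the log2 fold changes (mutant minus wild type) was -0.11 for *Dlx1*, 0.12 for *Dlx2*, -0.08 for *Dlx3* and -0.02 for *Dlx5*. The 95% intervals from limma-voom ran from -0.70 to 0.43 for *Dlx1* and from -0.53 to 0.64 for *Dlx2*. They ran from -0.79 to 0.47 for *Dlx3* and from -0.63 to 0.49 for *Dlx5*. For *Dlx6* the difference was 0.52, and its 95% interval from limma-voom ran from -0.43 to 1.74. A sizeable difference in either direction could thus have been missed for each of these genes, and the largest for *Dlx6*. *Dlx4* was at -0.33 in the fit without a filter.

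Within libraries, the ratio of the 2 genes of a pair does not depend on library size, and it is given here as a description of read counts. The ratio of *Dlx1* to *Dlx2* had a median of 0.592 in wild type and 0.597 in mutants at E10.0, and of 0.705 and 0.724 at E10.5. Its wild-type ranges did not overlap between stages (0.483 to 0.658 and 0.677 to 0.778), while the mutant ranges did (0.52 to 0.906 and 0.618 to 0.786). The ratio of *Dlx4* to *Dlx3* lay between 0.07 and 0.0942 in all 14 embryos, although both genes were lower at the later stage. The ratio of *Dlx6* to *Dlx5* ranged most widely, from 0.16 to 0.534, and was 0.403 to 0.492 in mutants at E10.5 against 0.202 to 0.348 in wild type at E10.5. Those ranges did not overlap, while at E10.0 the wild-type range (0.255 to 0.406) lay inside the mutant one. At E10.5 *Dlx6* had only 20 to 47 reads per library in wild type and 29 to 48 in mutants, and the ratios carry no test.

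Ectoderm genes moved with stage in both directions. Of the 9 ridge genes, 2 were called higher and 2 lower in wild type, and 2 higher and 4 lower in mutants. *Fgf4* and *Fgf9*, ridge FGFs that are switched on after *Fgf8*, rose in wild type (1.43 and 0.99) and in mutants (1.08 and 1.47). The ridge factor *Sp6* fell by 0.75 in wild type and by 0.84 in mutants, and *Cd44* by 0.61 and 0.75. Of the 18 surface ectoderm markers, 1 was called higher and 4 lower in wild type, and 3 higher and 4 lower in mutants, with medians of -0.14 and -0.12. In mutants without replicates 4 and 5, 1 ridge gene was called higher and 7 lower, and 2 surface ectoderm markers were called higher and 8 lower. With all libraries, the 4 called lower were the same in both genotypes: *Wnt7a*, the dorsal ectoderm signal (-0.92 and -0.98), *Wnt6*, *Tfap2c* and *Grhl2*. The 1 called higher in wild type was *Krt15* (1.59). In mutants *Krt15* (2.17), *Krt14* (0.73) and *Krt5* (0.39) were called higher. None of the 18 markers was at 0 in any group, and their summed level was 382 to 461 CPM at E10.0 and 350 to 369 CPM at E10.5 in wild type. The ridge genes summed to 157 to 213 CPM at E10.0 and 143 to 146 CPM at E10.5 in wild type, and to 132 to 216 and 113 to 152 CPM in mutants. The part of either list in the *Dlx* values was not tested.

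The *Dlx* reads were also expressed per 1000 reads of the 18 surface ectoderm markers, the ridge genes not being used. *Dlx2* was at 24.03 ± 5.65 reads per 1000 ectoderm marker reads (SD, n = 3) in wild type at E10.0 and at 16.3 ± 1.89 at E10.5, and in mutants at 25.1 ± 3.04 and 17.1 ± 1.14 (n = 4). On the log2 scale the later mean over the earlier was -0.56 in wild type and -0.55 in mutants for *Dlx2*, -0.30 and -0.49 for *Dlx3*, -0.29 and -0.43 for *Dlx5*, and -0.21 and -0.40 for *Dlx1*. *Dlx4* was at -0.34 and -0.74, and *Dlx6* at -0.43 and 0.11. In wild type the fall of each *Dlx* gene was thus smaller on this scale than its edgeR log2 fold change (for *Dlx2*, -0.56 against -0.81). The same held in mutants for *Dlx1* to *Dlx5* (for *Dlx2*, -0.55 against -0.68), and *Dlx6* in mutants was above 0. On this scale all later wild-type embryos lay below all earlier ones for 4 of the 5 tested genes (*Dlx1*, *Dlx2*, *Dlx3* and *Dlx5*). The share of all genes was 1.92%. In mutants this held for 3 of 5 (*Dlx1*, *Dlx2* and *Dlx3*), against 1.29%. The mean marker sum itself fell with stage, from 427 to 362 CPM for wild-type embryos and from 368 to 335 CPM for mutant ones. Dividing by a falling sum raises later values relative to earlier ones for every gene, the *Dlx* genes included. In CPM the shares of all genes were 20.4% (wild type) and 8.91% (mutant). The low shares on this scale thus reflect the scaling and do not measure an enrichment of *Dlx* genes. The ratios to marker reads were added after the levels were seen and carry no test.

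**Figure D4:**
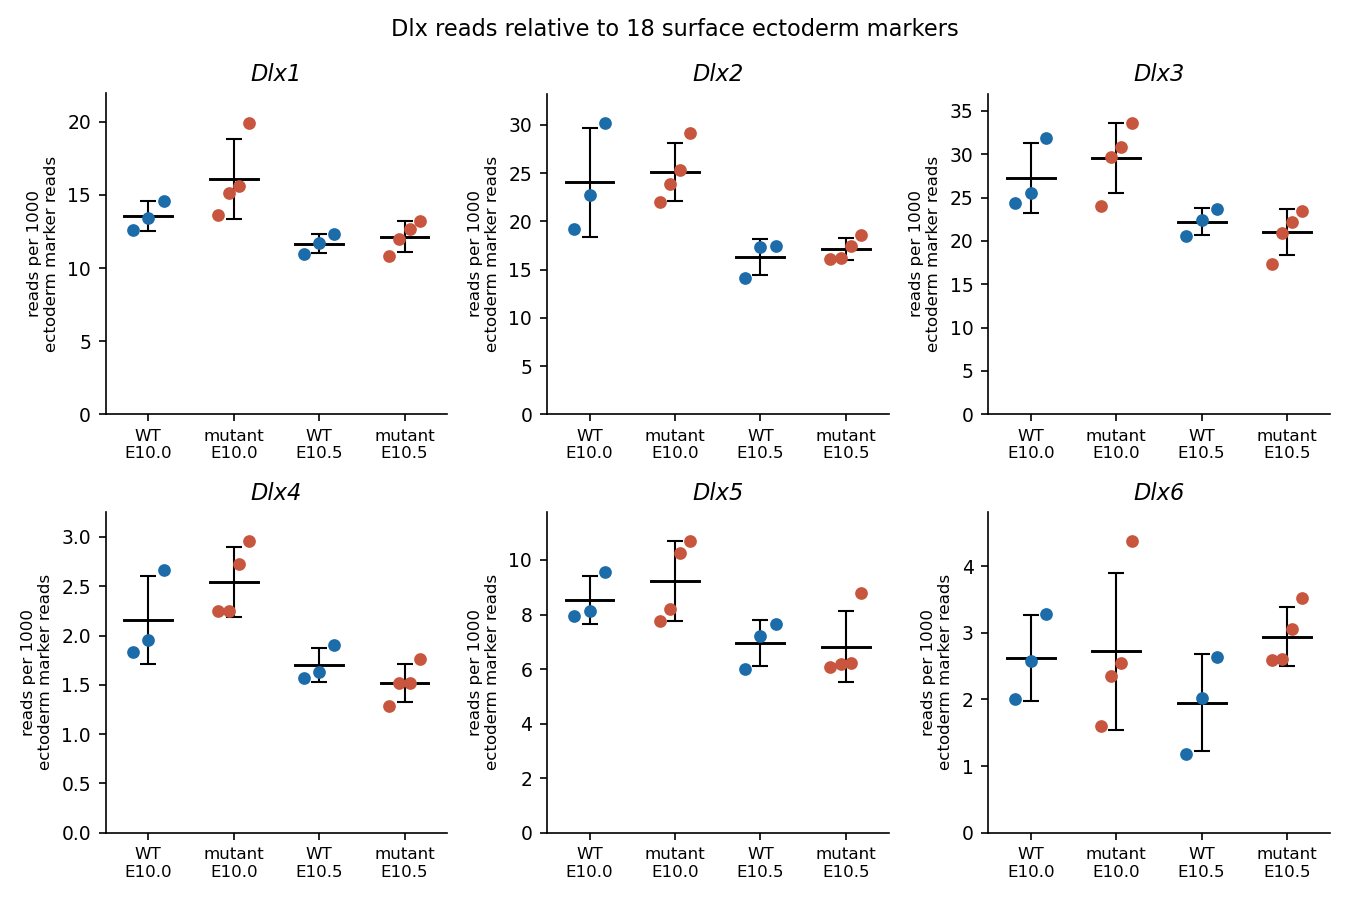
Reads of each *Dlx* gene per 1000 reads of 18 surface ectoderm markers (vertical axes, starting at 0) in each embryo (points), with the group mean and SD as bars. In both WT (n = 3 per stage) and mutant (n = 4 per stage), each E10.5 point of *Dlx1*, *Dlx2* and *Dlx3* lies below each E10.0 point, and those of *Dlx6* overlap.

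The genes whose pattern over the 14 embryos was most like that of a *Dlx* gene were found by the root mean square difference of log2(CPM + 1), after each gene was centred on its own mean. For *Dlx1* they were *Edar* (0.104), the receptor for ectodysplasin in skin placodes, *Spry1* (0.12), a feedback inhibitor of FGF signalling, and *Enpp1* (0.124). For *Dlx3* they were *AI661453* (0.1), *Pdgfa* (0.103) and the ectoderm signal *Wnt6* (0.117), and for *Dlx2* *E130012A19Rik* (0.122), *Tcf7* (0.127), a transcription factor of the WNT pathway, and *Trmt61a* (0.133). For *Dlx5* they included *Dctpp1* (0.0891), and for *Dlx6* they were *Taf4b* (0.152), *Scnm1* (0.159) and *Pygl* (0.16). Among the 5 tested members (*Dlx4* was not compared), *Dlx2* and *Dlx3* were nearest to each other (0.133), although they lie on different chromosomes, and *Dlx2* and *Dlx6* were farthest apart (0.341). *Dlx1* and *Dlx2*, neighbours on chromosome 2, stood at 0.219, and *Dlx5* and *Dlx6*, neighbours on chromosome 6, at 0.278. The distances also depend on each gene's own spread, a root mean square about its mean of 0.237 (*Dlx6*) to 0.382 (*Dlx2*). The 14 points of each gene share libraries and fall into 2 stages, and these distances carry no test.

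Transcripts antisense to the *Dlx* genes were low. *Dlx1as* had 5 to 24 reads per library and was not called in any comparison. *Dlx6as1*, whose long form is known to bind DLX proteins in the forebrain, had 14 to 62 reads and had log2 fold changes between genotypes of 0.57 (E10.0) and 0.71 (E10.5) (adjusted p = 0.578 and 0.622, edgeR's exact test without a filter). *Dlx6as2* had 2 reads in each wild-type library at E10.0 and 0 in the other 11 libraries, too few for a fold change. *A730090H04Rik*, which overlaps *Dlx4*, fell by 0.83 with stage in mutants (adjusted p = 0.0175, edgeR's exact test without a filter), where *Dlx4* fell too.

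The nearest measured genes on either side of each pair were compared for the same contrasts. Their distance from the pair ran from 2.9 kilobases (*Metap1d*) to 673 kilobases (*Tac1*). Beside *Dlx1* and *Dlx2*, *Metap1d*, *Hat1* and *Itga6* were not called in any of the 4 comparisons, whereas *Dlx2* was called between stages in both genotypes. With stage, in wild type and mutants, *Metap1d* was at 0.23 and 0.28, *Hat1* at -0.02 and -0.11 and *Itga6* at -0.20 and -0.24. In mutants *Itga6* had an adjusted p of 0.0549 (edgeR's exact test) and missed only the fold change threshold. Beside *Dlx3* and *Dlx4*, the integrin gene *Itga3* fell with stage in wild type (by 0.61) and in mutants (by 0.86) and was lower in mutants at E10.5 (-0.48), *Pdk2* rose with stage in mutants (0.66), and *Myst2* was not called. Beside *Dlx5* and *Dlx6*, *Shfm1* and *Acn9* were not called, *Slc25a13* fell with stage by 0.26 in wild type and by 0.35 in mutants, and *Tac1*, which encodes substance P, was higher in mutants at E10.5 (0.99) and rose with stage in mutants (0.92). *Gm1631* and *Tac4* were too low to be tested. *Tac1* was thus called between genotypes at E10.5 where neither *Dlx5* nor *Dlx6* passed.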

How the data were processed

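The authors deposited raw counts of reads per gene symbol for 14 RNA-seq libraries made from poly(A) RNA, each from both forelimb buds of 1 embryo. Reads had been aligned to mm9 with TopHat 2.0.13, and uniquely mapped reads were counted with htseq-count (version not given in the sources used here) without regard to strand. Genes of the sex chromosomes and the mitochondrion (1041 symbols) were not tested, and of the rest, 12393 reached 1 CPM in 3 or more libraries and were tested. CPM were scaled by TMM, and RPKM divided them by the length of the longest transcript in the GENCODE annotation. The reads had been counted on another annotation (refGene).

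Groups of embryos were compared with edgeR's exact test (dispersions over all 14 libraries, prior of 10 degrees of freedom, Benjamini-Hochberg adjustment over all genes tested, adjusted p of at most 0.1 and fold change of at least 1.2), and the interaction with edgeR's quasi-likelihood test. Intervals of 95% came from limma-voom. The tests were tried on simulated data. Alternatives were the quasi-likelihood test, DESeq2, limma-voom, RLE size factors, no low-count filter, chromosomes X, Y and M kept, *Rn45s* left out, 2 groups fitted apart, a replicate block, and libraries left out. The members and lists (ridge, surface ectoderm, BMP ligands and response, anterior and limb mesenchyme, and markers of other cells) were chosen with earlier results of these data known. Genes named were the members, *Smad4*, antisense transcripts, neighbours, the 3 genes most alike each member, up to 3 called genes of each list and 10 fixed genes. *Sp6*, *Cd44*, *Fgf4*, *Wnt7a*, *Wnt6*, *Tfap2c*, *Grhl2*, *Krt15*, *Tbx5*, *Pitx1* and *Foxd3* were named after their values were seen. Part of the genes most alike *Dlx5* is not reported here.

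Same-numbered libraries were checked for pairing by the correlation of their deviations from the group means. It was 0.571, 0.611 and 0.269 for the 3 numbers shared by mutants of both stages, and -0.283 to -0.0785 in wild type. Mutant pairs with different numbers reached 0.383, and those above 0 joined replicates 4 and 5, or the others, with each other. A threshold of 0.1 on this correlation alone would read the numbers as pairing the mutants, but they need not mark pairs. The fit of the mutants with a replicate block is therefore given only as an alternative. The reads on genes per library (34066930 to 61691258) leave counting error large for *Dlx4* and *Dlx6*. Software was R 4.3.3, edgeR 4.0.16, limma 3.58.1, DESeq2 1.42.0, Python 3.11.15 and matplotlib 3.10.9.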

Additional observations from a re-analysis of the deposited data

How the results depend on the processing

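No *Dlx* gene was called between genotypes or in the interaction under any alternative run, and several values that did not pass changed direction. *Dlx3* and *Dlx6* at E10.5 and the wild-type stage values did not change direction under any alternative run. Without mutant replicates 4 and 5, the log2 fold change at E10.0 was 0.0122 for *Dlx3* and 0.366 for *Dlx6*, and the interaction was -0.0791 for *Dlx2* and -0.0583 for *Dlx6*. With the replicate block, *Dlx6* was at 0.105 at E10.0 and *Dlx1* at 0.0246 at E10.5. Leaving out each library in turn gave ranges at E10.0 of -0.0925 to 0.187 (*Dlx1*), -0.299 to 0.107 (*Dlx2*), -0.25 to 0.0914 (*Dlx3*), -0.221 to 0.0244 (*Dlx5*) and -0.487 to 0.16 (*Dlx6*). At E10.5 they were -0.135 to 0.0351 (*Dlx1*), -0.117 to 0.0917 (*Dlx2*) and -0.324 to 0.0052 (*Dlx5*), and for *Dlx6* with stage in mutants -0.339 to 0.307. For the interaction they were -0.248 to 0.0377 (*Dlx1*), -0.152 to 0.255 (*Dlx2*), -0.277 to 0.0886 (*Dlx3*) and -0.193 to 0.125 (*Dlx5*).

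The count of *Dlx* genes called with stage in wild type was 1, and it was 2 with DESeq2, 2 with the replicate block, 4 with the wild type fitted apart (fewer genes and samples), 4 without mutant replicates 4 and 5, and 0 to 3 without single libraries; the cause was not tested. The count in mutants stayed between 3 and 5, over unlike sets of genes. The fit without a low-count filter also tested *Dlx4* and called it, and the mutants alone with the replicate block gave 3 of 4 genes tested. Pairing was not supported outside the mutants and is uncertain within them. The block is otherwise given here only: it called 1961 genes at E10.0 between genotypes against 819, and 280 at E10.5 against 462. Counts over all genes that moved by over 1.5 times were 2018 at E10.0 without mutant replicates 4 and 5, 1932 for the wild-type stages fitted apart against 1256, and for the interaction 87 with DESeq2, 9 with limma-voom, 39 without a filter and 6 without mutant replicates 4 and 5, against 23. Over single libraries left out the counts ran from 254 to 1062 at E10.0, 286 to 516 at E10.5, 484 to 1515 for the wild-type stages and 7 to 34 for the interaction. The split at E10.0 was 413 higher and 406 lower, against 512 and 336 with RLE size factors and 519 and 313 without *Rn45s*. Counts of *Dlx4* and *Dlx6* limit what could be detected for them.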

Other observations

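Markers of other cells outside the comparisons were read for the same embryos. Of 4 tested muscle precursor genes, *Myf5* was higher in mutants at E10.0 (1.26) and 0 passed at E10.5. Of 5 endothelial and 4 erythroid genes, 0 were called between genotypes at either stage. *Isl1*, a gene of the early hindlimb field, was higher in mutants at E10.0 (1.32) and *Tbx4* at E10.5 (0.79). Of 2 tested neural crest genes, *Ednrb* was higher at E10.0 (0.74) and *Erbb3* lower at E10.5 (-0.42), and the arch gene *Gsc* was lower at both stages (-1.07 and -1.07).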
